A study of Mus musculus with 9 samples.

Results

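Complement gene expression was followed in whole NB9464 tumors through 9 genes: C1qa, C1qb and C1qc, C1ra, C3, Cfb, Serping1, C3ar1 and C5ar1. They were selected by gene symbol and not by any measured value. All 9 were among the 54429 symbols of the count table, and all 9 were among the 15931 genes that passed the filter on low counts. NB9464 is a MYCN-amplified mouse neuroblastoma line. Per the labels, the cells were grown under the skin of wild-type C57BL/6 mice, and treatment started once a tumor measured 250 mm3. The 3 tumors of each group came from mice given vehicle, R788 + anti-PDL1, or Rad + R788 + anti-PDL1, and the labels give neither their age nor their sex, while the methods of the study describe mice a few weeks old. R788 (fostamatinib) is a prodrug of a Syk kinase inhibitor and was dosed at 50 mg/kg on 5 days a week. The anti-PDL1 antibody was clone 10F.9G2, given 4 times a week per the treatment label, while the design text names 4 dosing days (28, 31, 34 and 37). Radiation was 10 Gy. Radiation alone and each drug alone were not analysed here, all tumors came from a single cell line, and nothing in the labels ties same-numbered tumors of different groups to each other.

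Complement is a cascade of blood and tissue proteins that tags cells and debris and calls in phagocytes. C1q, assembled from the chains encoded by C1qa, C1qb and C1qc, recognizes antibody complexes and dying cells and starts the classical pathway through the proteases C1r and C1s. C3 is the protein on which all activation routes converge, factor B (Cfb) builds the alternative pathway convertase that amplifies C3 cleavage, and the C1 inhibitor (Serping1) blocks C1r and C1s. The cleavage fragments C3a and C5a signal through the receptors C3aR1 and C5aR1 on myeloid cells. Most circulating complement is made by the liver, whereas C1q is made chiefly by macrophages and related cells, also within tumors.

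C1qa (ENSMUSG00000036887.5), C1qc and C1qb lie next to each other on the minus strand of mouse chromosome 4 (GRCm38), within 18.7 kb. C1qa spans 136895917 to 136898803, C1qc 136889804 to 136893065 and C1qb 136880129 to 136886187, and 2.85 kb and 3.62 kb separate the neighbors. C1ra lies on chromosome 6 (124512405 to 124523443, plus strand), and C3ar1 lies on the same chromosome (122847138 to 122856161, minus strand). C3 (57203970 to 57228136) and Cfb (34856374 to 34862518) are both on the minus strand of chromosome 17, C5ar1 on chromosome 7 (16246743 to 16259540, minus strand) and Serping1 on chromosome 2 (84765387 to 84775444, minus strand). Cfb shares 2246 exon bases with the same-strand gene Gm20547, to which 0 counts were assigned over all libraries. The other 8 share no exon base with another GENCODE M21 gene.

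Promoter sequences of C1qb, C1qc and C3ar1 are shown because C1qb varied with each of the other 2 across the 9 tumors, as described below. RefSeq promoters (GRCm38.p6) were at hand for 6 of the 9 genes. The 250 bases before each start were searched on both strands for AGGAAG, a core of ETS factor sites such as those of the myeloid factor PU.1, for TTCNNNGAA, the core of STAT sites, for TTGCNNAA, read by C/EBP factors, and for GAAANNGAAA, of the type bound by interferon regulatory factors. Only bases outside the GENCODE gene are printed, 5′ to 3′ on the gene's strand, in lower case with matches in capitals (a match on the other strand reads CTTCCT). The windows are chr4:136886201-136886450 for C1qb, chr4:136893066-136893164 for C1qc and chr6:122856162-122856407 for C3ar1, all on the minus strand.
C1qb: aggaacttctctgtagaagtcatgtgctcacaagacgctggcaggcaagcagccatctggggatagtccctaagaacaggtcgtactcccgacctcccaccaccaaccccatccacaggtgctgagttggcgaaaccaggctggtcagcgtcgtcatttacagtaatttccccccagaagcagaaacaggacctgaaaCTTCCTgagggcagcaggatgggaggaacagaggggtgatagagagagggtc
C1qc: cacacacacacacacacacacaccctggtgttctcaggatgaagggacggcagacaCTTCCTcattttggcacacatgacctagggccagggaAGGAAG
C3ar1: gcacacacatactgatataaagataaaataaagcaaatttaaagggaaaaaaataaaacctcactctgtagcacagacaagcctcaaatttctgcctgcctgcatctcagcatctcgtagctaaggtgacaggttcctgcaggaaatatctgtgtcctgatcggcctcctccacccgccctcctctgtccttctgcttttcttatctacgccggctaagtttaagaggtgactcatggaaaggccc
AGGAAG was matched once in C1qb, from base -52 to -47 before the start, and at 2 places in C1qc, from -194 to -189 and from -157 to -152. Among the 6 promoters it was found in 3, these and C5ar1, in which 2 of the matches overlap each other. C3ar1 held no match to any of the 4 motifs. AGGAAG occurs in 29.5% of all 32817 promoter windows of the same length, so its presence does not set these genes apart. TTGCNNAA was found in C3 alone of the 6 and in 9.57% of all windows, and TTCNNNGAA and GAAANNGAAA were found in 0 of the 6, against 7.01% and 2.97% of all windows.

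Total counts ranged from 18276683 to 23397886 per library. The first Rad + R788 + anti-PDL1 library stood apart: its median correlation with the other libraries was 0.878, against 0.944 to 0.956 for the rest, and its TMM factor, the scaling that sets library sizes on a common footing, was 0.743. Of 8 noradrenergic neuroblast markers, Hand2 (6545 to 12901 counts) and Mycn (1265 to 6107 counts) were abundant in every library, while Th was at 0 throughout and Phox2a, Dbh and Chga had 0 to 3 counts. Levels below are CPM, read counts relative to the size of the library, after TMM scaling, differences are log2 fold changes with SE from edgeR's quasi-likelihood test, and a gene was called at an adjusted p under 0.05. In bulk tumors, fewer cells of a type cannot be told apart from less RNA per cell.

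The comparison with vehicle asked what the drugs (R788 + anti-PDL1) and the full combination (Rad + R788 + anti-PDL1) changed, and the comparison of the treated groups what radiation added. Relative to vehicle, 7 of the 9 genes had higher mean levels in R788 + anti-PDL1 tumors and 8 of 9 in Rad + R788 + anti-PDL1 tumors, yet edgeR called 0 of 9 in each of the 3 comparisons. Over all genes, the share called was 0.678% for the drugs against vehicle, 0.0439% for the full combination against vehicle and 0.00628% between the treated groups. Raw p-values under 0.05 were obtained for 0 of 9 genes in the first comparison (11.7% of all genes), for 4 of 9 in the second (13.2%) and for 0 of 9 in the third (18.4%). The 4 genes were C1qa, C1qc and Cfb, which were higher, and C1ra, which was lower. DESeq2 called 0, 2 and 0 of the 9 genes, against 4.01%, 3.16% and 4.06% of all genes, and the 2 were C1qa and Cfb. The median log2 fold change of the 9 genes was 0.62, 0.69 and 0.58 in the same order, where the median over all genes was -0.02, 0.05 and 0.04. The 3 comparisons share groups of tumors and are not independent of each other.

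**Figure D1:**
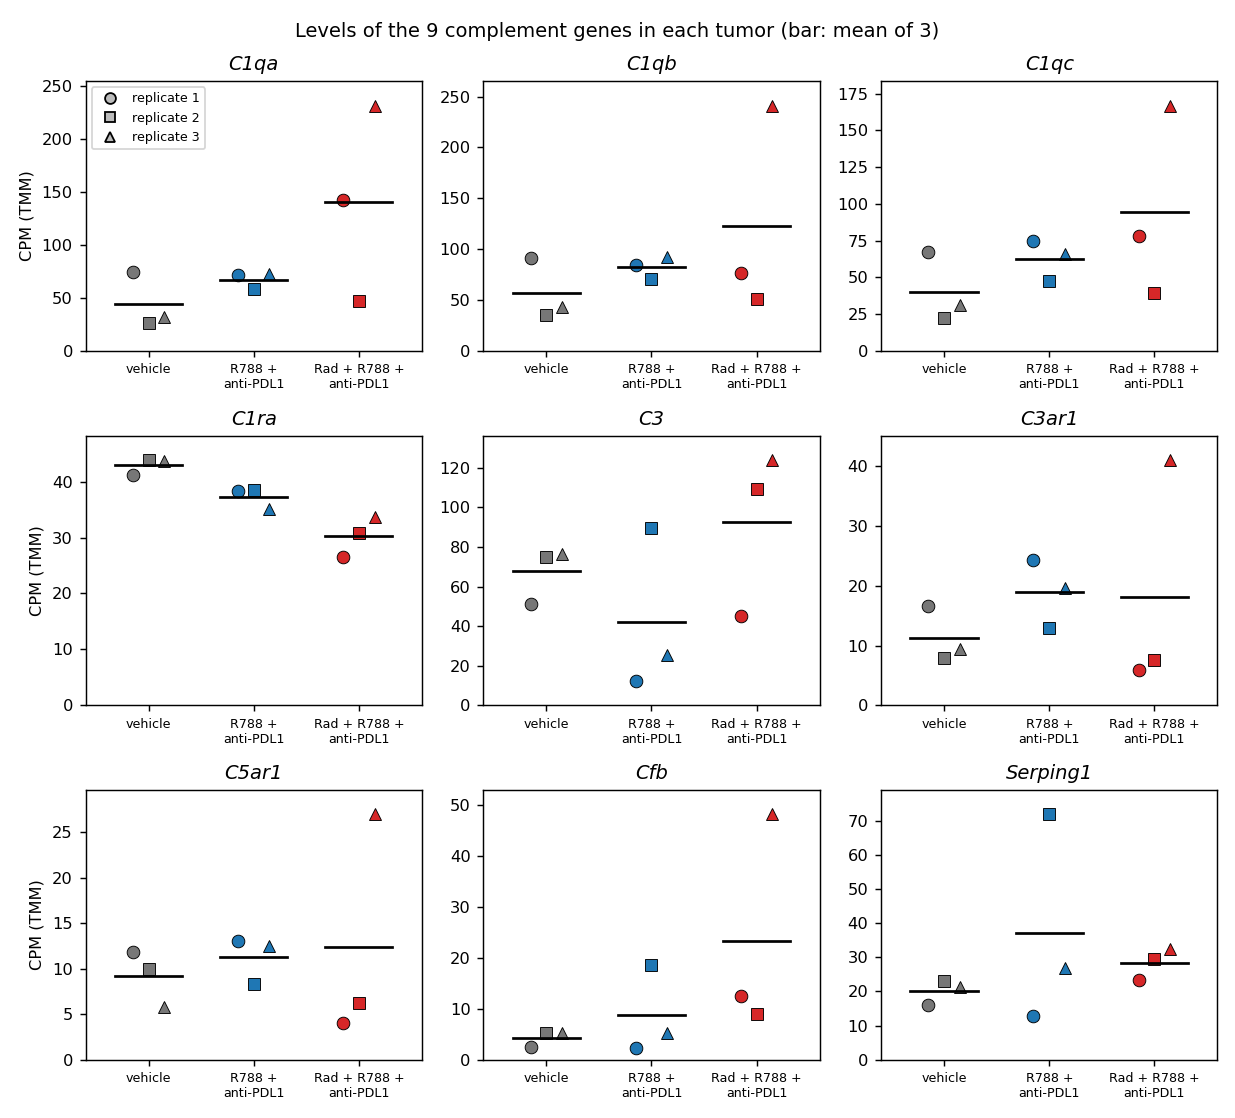
TMM-scaled CPM (y axis, from 0) of each of the 9 complement genes in every tumor, by group (x axis), with symbols for replicate numbers and a bar at the mean of 3 tumors. The third Rad + R788 + anti-PDL1 tumor lies above the vehicle range for 8 of the 9 genes, and C1ra is the gene whose 3 groups are each separate with this scaling (with total counts alone, the first 2 groups overlap).

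Many of the highest values came from a single tumor. In the third Rad + R788 + anti-PDL1 tumor, 8 of the 9 genes lay above the range of the 3 vehicle tumors and 1, C1ra, below it. In the second tumor of that group 3 genes were above, 2 below and 4 inside the range, and in the first 4 were above, 4 below and 1 inside. In the R788 + anti-PDL1 tumors 3, 3 and 5 genes were above the vehicle range and 4, 1 and 2 below it.

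C1q transcripts were the most abundant of the 9 per length of gene. In vehicle tumors, C1qb had 52.0 ± 27.6 CPM per kb of exon (SD, n = 3) and C1qa 42.2 ± 25.3, followed by C1qc (20.9 ± 12.4), C1ra (14.4 ± 0.497), C3 (13.2 ± 2.77), Serping1 (8.66 ± 1.60), C5ar1 (3.58 ± 1.20), C3ar1 (2.63 ± 1.08) and Cfb (1.53 ± 0.567). Among neighbors in this order, C3 lay above Serping1 and Serping1 above C5ar1 without overlap between the 3 tumors, and all other neighbors overlapped. In R788 + anti-PDL1 tumors the order began with C1qb (75.8 ± 10.1), C1qa (64.7 ± 7.62) and C1qc (32.5 ± 7.13), and only C1qa and C1qc were neighbors without overlap. In Rad + R788 + anti-PDL1 tumors C1qa came first at 135 ± 88.7 CPM per kb and C1qb second at 113 ± 95.0, and every pair of neighbors overlapped.

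C1qa, which encodes the A chain of C1q, was measured at 74.1, 25.8 and 31.7 CPM in the vehicle tumors, 71.6, 58.1 and 72.1 CPM in the R788 + anti-PDL1 tumors, and 143, 47.0 and 231 CPM in the Rad + R788 + anti-PDL1 tumors. The B chain gene C1qb had 90.9, 35.4 and 43.4 CPM, then 84.0, 70.8 and 92.7 CPM, then 76.8, 50.5 and 241 CPM in the same order. The C chain gene C1qc had 67.5, 22.4 and 31.2 CPM, then 74.6, 47.7 and 65.9 CPM, then 78.0, 39.2 and 167 CPM. For all 3 chains the first vehicle tumor was the highest of its group and reached the levels of the R788 + anti-PDL1 tumors, so the groups overlapped.

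In R788 + anti-PDL1 tumors against vehicle, the log2 fold changes of C1qa, C1qb and C1qc were 0.62 ± 0.54, 0.54 ± 0.55 and 0.64 ± 0.53 (SE), each about the size of its error, with edgeR adjusted p-values of 0.741, 0.783 and 0.728. They were 1.25, 1.09 and 1.25 without the first vehicle tumor and 0.34, 0.29 and 0.34 without the second. In Rad + R788 + anti-PDL1 tumors against vehicle they were 1.68 ± 0.55, 1.12 ± 0.56 and 1.23 ± 0.54 (edgeR adjusted p = 0.289, 0.400 and 0.373), and DESeq2 gave C1qa an adjusted p of 0.0488. Without the third Rad + R788 + anti-PDL1 tumor the changes were 1.11, 0.17 and 0.53. Between the treated groups they were 1.06 ± 0.55, 0.58 ± 0.55 and 0.60 ± 0.53, and without the same tumor C1qa stayed higher at 0.49 while C1qb and C1qc turned to -0.38 and -0.10.

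**Figure D2:**
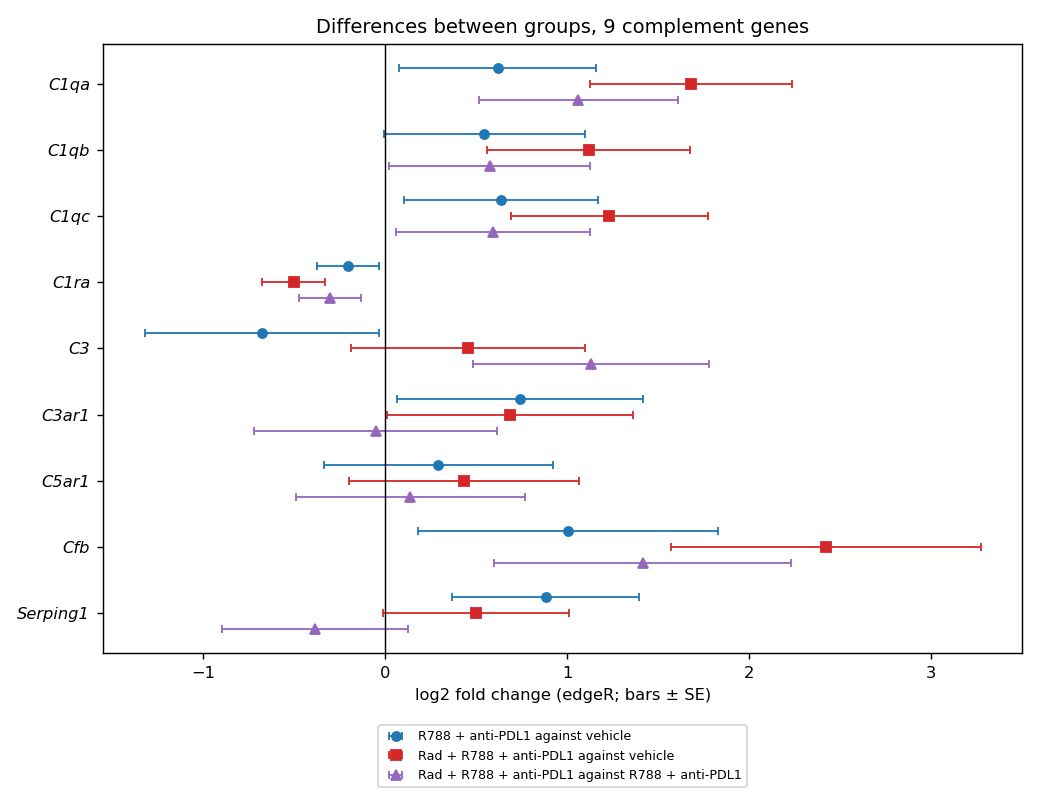
Log2 fold changes (x axis; bars ± SE from edgeR) of the 9 complement genes (y axis) in the 3 comparisons, marked by color and symbol. Cfb (2.42) and C1qa (1.68) in Rad + R788 + anti-PDL1 against vehicle are the highest values, C1ra is below 0 in all 3 comparisons with the shortest error bars, and no gene was called by edgeR.

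The 3 chains varied together from tumor to tumor. Over the 9 tumors, log2 CPM of C1qa and C1qc correlated at Pearson r = 0.97 (exact permutation p = 1.38e-05, adjusted over the 36 pairs of the 9 genes 0.000496) and Spearman rho = 0.95 (permutation p = 0.000353, adjusted 0.0127). For C1qb and C1qc, r was 0.97 (exact permutation p = 9.65e-05, adjusted 0.00174) and rho 0.83 (permutation p = 0.00827, adjusted 0.0595). For C1qa and C1qb, r was 0.91 (exact permutation p = 0.000568, adjusted 0.00511) and rho 0.88 (permutation p = 0.00308, adjusted 0.0277). Without the 2 tumors farthest from the median of the first gene, r was 0.90, 0.91 and 0.73. These p-values are two-sided and treat the 9 tumors as exchangeable, although they belong to 3 groups, and within the 6 unirradiated tumors r was 0.98, 0.98 and 0.997.

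The share of C1qa in the C1q signal was highest in the irradiated tumors. C1qa contributed 31.9%, 30.8% and 29.8% of the summed C1q CPM in the vehicle tumors, and 31.1%, 32.9% and 31.3% in the R788 + anti-PDL1 tumors. In the Rad + R788 + anti-PDL1 tumors it contributed 48.0%, 34.4% and 36.2%, all above the other 6 tumors. The mean share was 39.5% ± 7.38 (SD, n = 3) against 30.8% ± 1.03 in vehicle, with an exact permutation p of 0.1, the smallest that 3 tumors against 3 can give. The difference was 8.68 percentage points, and without the first Rad + R788 + anti-PDL1 tumor it was 4.45 points, with a mean share of 35.3%. In the first Rad + R788 + anti-PDL1 tumor, the library that stood apart, C1qb held only 25.8% of the signal. These shares do not depend on the scaling between libraries.

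**Figure D3:**
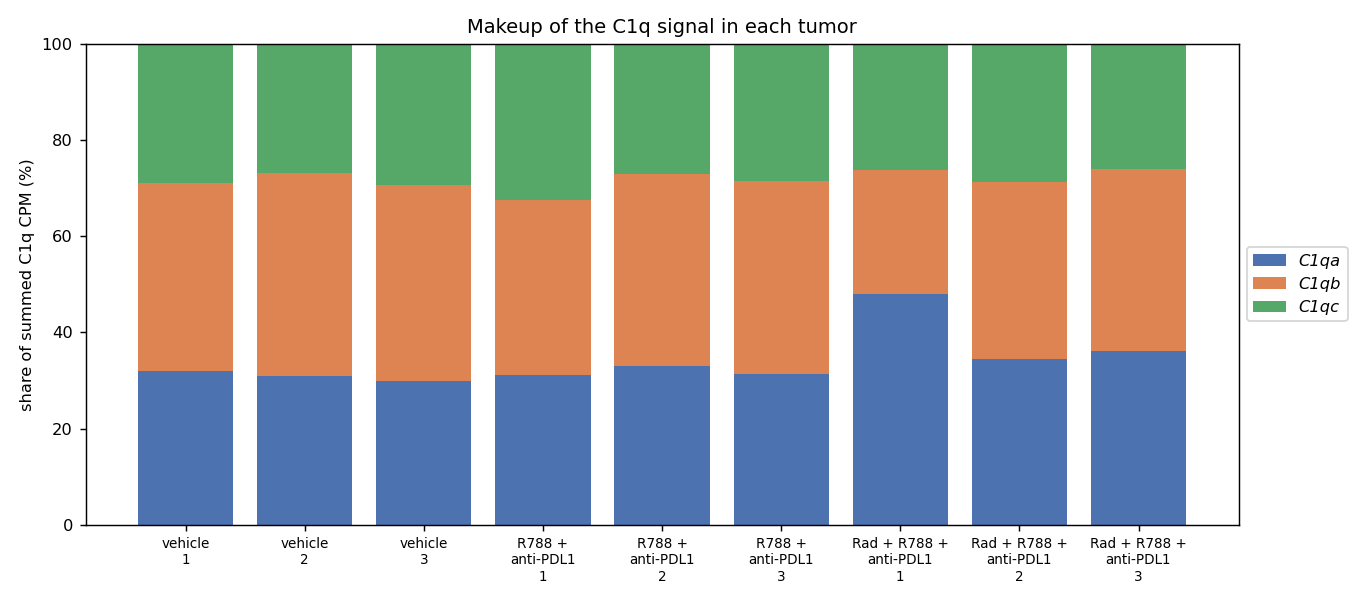
Share of the summed C1q CPM (y axis, percent) contributed by C1qa, C1qb and C1qc in each of the 9 tumors (x axis, group and replicate number). The C1qa share is 29.8% to 32.9% in the 6 unirradiated tumors and 34.4% to 48.0% in the 3 Rad + R788 + anti-PDL1 tumors.

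C1q was then set against macrophage markers. Summed over 12 macrophage markers (Adgre1, Csf1r, Cd68, Mrc1, Cd14, Fcgr1, Aif1, Tyrobp, Fcer1g, Ms4a7, Mertk and Lyz2), the level was 270 to 514 CPM in vehicle, 560 to 588 CPM in R788 + anti-PDL1 and 264 to 1408 CPM in Rad + R788 + anti-PDL1 tumors. All 12 were detected and tested, and edgeR called 0 of them in every comparison. Raw p-values were under 0.05 for 1, 3 and 1 of the 12, against 11.7%, 13.2% and 18.4% of all genes. DESeq2 called 0, 2 and 0, against 4.01%, 3.16% and 4.06% of all genes. The 2 were Aif1 (adjusted p = 0.00135) and Ms4a7 (adjusted p = 0.0181), both higher. The summed C1q level divided by this marker sum was 0.452, 0.309 and 0.323 in vehicle tumors and 0.411, 0.300 and 0.412 in R788 + anti-PDL1 tumors. It was 0.891, 0.519 and 0.454 in Rad + R788 + anti-PDL1 tumors, each above all 6 others, the third only just above the first vehicle tumor (0.452). The log2 ratio was 0.74 higher than in vehicle and 0.68 higher than in R788 + anti-PDL1 tumors (exact permutation p = 0.1 for each, the smallest possible), and it differed by 0.06 between those groups (exact permutation p = 1). Without the first Rad + R788 + anti-PDL1 tumor the differences were 0.45 and 0.39. With mean log2 levels in place of sums they were 0.55 and 0.54, and the groups then overlapped against vehicle (exact permutation p = 0.3).

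**Figure D4:**
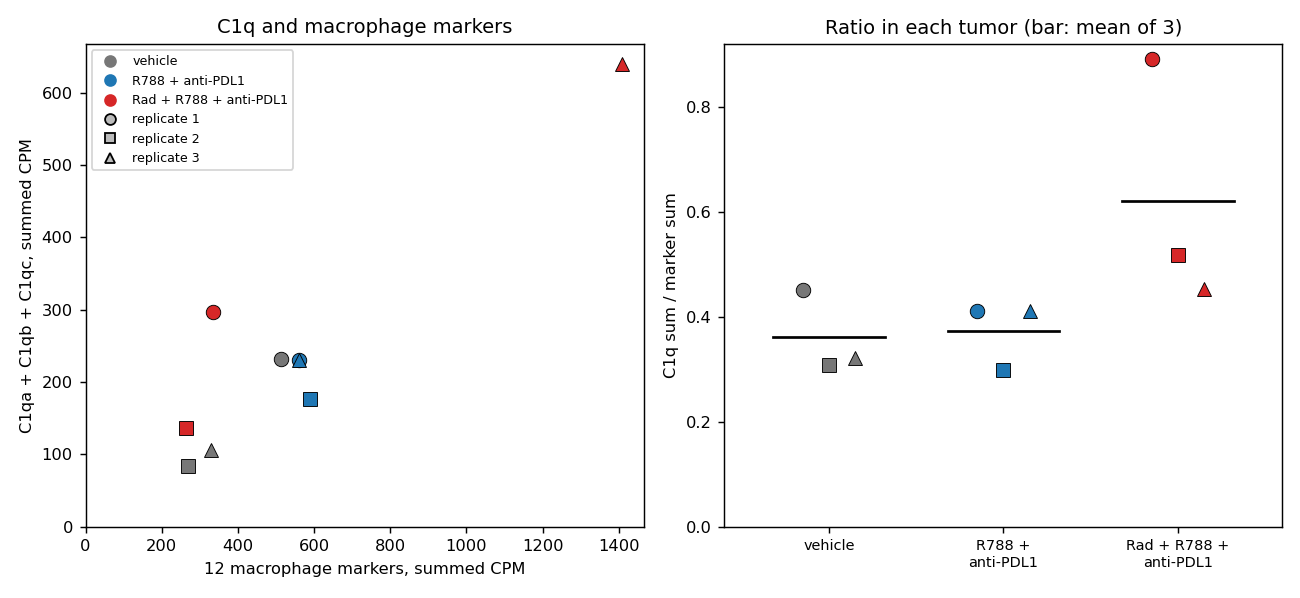
Left, summed CPM of C1qa, C1qb and C1qc (y axis) against summed CPM of 12 macrophage markers (x axis) in the 9 tumors. Right, the ratio of these sums by group with a bar at the mean of 3 tumors. The third Rad + R788 + anti-PDL1 tumor is highest on both axes of the left panel, while the first has the highest ratio, 0.891.

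C1ra, the gene of the C1r protease that C1q activates, had the smallest SE of the 9 and was the one gene whose 3 groups did not overlap after TMM scaling, although the first 2 did with total counts alone. It had 41.2, 43.9 and 43.7 CPM in vehicle tumors, 38.3, 38.6 and 35.2 CPM in R788 + anti-PDL1 tumors, and 26.5, 30.8 and 33.7 CPM in Rad + R788 + anti-PDL1 tumors. It was thus 1 of 9 genes lower without overlap in each comparison, where 16.5%, 11.2% and 13.2% of all genes were. The log2 fold changes were -0.20 ± 0.17 for the drugs against vehicle (edgeR adjusted p = 0.729), -0.50 ± 0.17 for the full combination against vehicle (adjusted p = 0.301) and -0.30 ± 0.17 between the treated groups (adjusted p = 0.353). The direction held in 12 of 12 alternatives in each comparison, and without the first Rad + R788 + anti-PDL1 library the last 2 differences were -0.38 and -0.20. With scaling by total counts alone, which moved the median of all genes by 0.15 in R788 + anti-PDL1 against vehicle and by -0.18 between the treated groups, the first of these differences was -0.06 and the irradiated tumors stayed lowest at 19.6, 31.9 and 36.2 CPM. C1rb, the second mouse C1r gene, had 0 to 3 counts in every library.

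Serping1, the inhibitor of C1r and C1s, had 16.0, 23.0 and 21.4 CPM in vehicle tumors, 12.7, 71.9 and 26.8 CPM in R788 + anti-PDL1 tumors, and 23.4, 29.6 and 32.5 CPM in Rad + R788 + anti-PDL1 tumors. The second R788 + anti-PDL1 tumor held by far the highest value. The log2 fold change of R788 + anti-PDL1 against vehicle was 0.88 ± 0.51 (edgeR adjusted p = 0.583), and -0.03 without that tumor. In Rad + R788 + anti-PDL1 against vehicle it was 0.50 ± 0.51 (edgeR adjusted p = 0.639), and all 3 irradiated tumors lay just above the vehicle tumors, a separation lost with scaling by total counts alone. Between the treated groups it was -0.38 ± 0.51, and 0.53 without the second R788 + anti-PDL1 tumor.

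C3, the central component, was uneven within the R788 + anti-PDL1 group. It had 51.2, 75.0 and 76.7 CPM in vehicle tumors, 12.1, 89.7 and 25.2 CPM in R788 + anti-PDL1 tumors, and 45.1, 109 and 124 CPM in Rad + R788 + anti-PDL1 tumors. Of the R788 + anti-PDL1 tumors, 2 lay below every vehicle tumor and the second lay above all of them. The log2 fold changes were -0.68 ± 0.64 for the drugs against vehicle (edgeR adjusted p = 0.763), 0.46 ± 0.64 for the full combination against vehicle (adjusted p = 0.734) and 1.13 ± 0.65 between the treated groups (adjusted p = 0.356). Without the second R788 + anti-PDL1 tumor, the first and the last became -1.86 and 2.32, still not called.

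Cfb, the gene of factor B, had the largest difference of the 9. Its levels were 2.48, 5.25 and 5.26 CPM in vehicle tumors, 2.25, 18.6 and 5.29 CPM in R788 + anti-PDL1 tumors, and 12.5, 9.03 and 48.1 CPM in Rad + R788 + anti-PDL1 tumors. Each irradiated tumor lay above all vehicle tumors, and this also held with scaling by total counts alone. The log2 fold change was 2.42 ± 0.85 (edgeR adjusted p = 0.310), a 5.35-fold difference, and DESeq2 gave an adjusted p of 0.0390. Without the third Rad + R788 + anti-PDL1 tumor it was 1.30. Cfb and Serping1 were the 2 of 9 genes higher without overlap in this comparison, where 9.27% of all genes were, while in the other comparisons 0 of 9 were, against 13.6% and 14.2%. For the drugs over vehicle the log2 fold change of Cfb was 1.01 ± 0.82 (edgeR adjusted p = 0.720), and -0.20 without the second tumor of the treated group. Between the treated groups the difference was 1.41 ± 0.82 (edgeR adjusted p = 0.360), and 0.30 without the third irradiated tumor.

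Summed markers of other cell types and of the IFN gamma response were read beside these genes. The summed level of 10 IFN gamma response genes was 110 to 122 CPM in vehicle, 99.6 to 108 CPM in R788 + anti-PDL1 and 97.7 to 220 CPM in Rad + R788 + anti-PDL1 tumors. The highest value was in the third irradiated tumor, which was highest for Cfb but also for the C1q genes, C3, C3ar1 and C5ar1. The first and second irradiated tumors had the lowest sums of all tumors (97.7 CPM in each), although Cfb lay above all vehicle tumors there. The 8 fibroblast markers summed to 3175 to 3968 CPM, 3021 to 5569 CPM and 2697 to 5192 CPM, and their highest value was in the second R788 + anti-PDL1 tumor, the one highest for Serping1. There Col1a1 gave 2845 and Col3a1 2126 of the 5569 CPM, so this sum rests largely on 2 collagen genes. Col1a1, Col1a2, Dcn, Pdgfra and Pdgfrb were highest in that tumor. Col3a1 (2402 CPM) and Fbln1 (208 CPM) were highest in the second irradiated tumor, and Lum (27.9 CPM) in the second vehicle tumor. The 8 endothelial markers summed to 48.0 to 59.6 CPM in vehicle, 58.3 to 168 CPM in R788 + anti-PDL1 and 64.5 to 81.9 CPM in Rad + R788 + anti-PDL1 tumors. The highest sum was in the second R788 + anti-PDL1 tumor, and the irradiated tumors lay above all vehicle tumors. Pecam1 was the 1 of the 8 markers higher without overlap in irradiated tumors against vehicle, where 9.27% of all genes were. It had 26.4, 31.0 and 30.5 CPM against 14.5, 15.4 and 15.8 CPM in vehicle. In the first irradiated tumor Cdh5 (5.68 CPM) and Kdr (4.94 CPM) lay below every vehicle tumor. The separation of the sums thus rested largely on Pecam1. The 8 dendritic cell markers, of which 7 passed the filter, summed to 23.3 to 26.0 CPM, 20.4 to 27.4 CPM and 27.2 to 61.1 CPM in the 3 groups, highest in the first Rad + R788 + anti-PDL1 tumor, which also had the highest C1q ratio. Batf3 alone gave 46.0 of these 61.1 CPM, against 5.42 to 11.3 CPM in the other tumors, so the sum there rested on a single marker. Of the 8 hepatocyte markers only Trf, which other cells also express, passed the filter on low counts, and Alb had 0 or 1 count per library. The 8 neutrophil markers, of which 5 passed the filter, summed to 4.97 to 13.1 CPM, 3.40 to 4.80 CPM and 3.91 to 17.9 CPM in the 3 groups, and the 8 T cell markers, of which 3 passed, to 1.75 to 4.20 CPM, 5.77 to 23.9 CPM and 1.99 to 36.2 CPM, each highest in the third Rad + R788 + anti-PDL1 tumor. In that tumor Csf3r gave 13.7 of the 17.9 CPM and Cd4 17.4 of the 36.2 CPM. In the first R788 + anti-PDL1 tumor Cd4 gave 22.9 of the 23.9 CPM, so these sums rest largely on single genes. Apart from the ratios to macrophage markers, the part of these cells in the results was not tested.

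The anaphylatoxin receptor genes C3ar1 and C5ar1 varied more within the irradiated group than between groups. C3ar1, the C3a receptor, had 16.6, 7.95 and 9.43 CPM in vehicle tumors, 24.3, 12.9 and 19.6 CPM in R788 + anti-PDL1 tumors, and 5.90, 7.56 and 41.1 CPM in Rad + R788 + anti-PDL1 tumors. C5ar1, the C5a receptor, had 11.8, 10.0 and 5.81 CPM, then 13.1, 8.29 and 12.5 CPM, then 4.06, 6.19 and 26.9 CPM. In the irradiated group, 2 tumors held the lowest C3ar1 values of all 9 and the third the highest, and C5ar1 was likewise highest in the third. The log2 fold changes against vehicle were 0.74 ± 0.68 and 0.29 ± 0.63 for R788 + anti-PDL1 (edgeR adjusted p = 0.751 and 0.908) and 0.69 ± 0.68 and 0.43 ± 0.63 for Rad + R788 + anti-PDL1 (adjusted p = 0.624 and 0.742). Without the third irradiated tumor the latter became -0.75 and -0.85. Between the treated groups they were -0.05 ± 0.67 and 0.14 ± 0.63 (edgeR adjusted p = 0.972 and 0.916), with values from -1.49 to 0.38 and from -1.14 to 0.57 when single tumors were left out.

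C3ar1 and C5ar1 moved together across the tumors, with r = 0.92 (exact permutation p = 0.000488, adjusted over the 36 pairs 0.00511) and rho = 0.92 (permutation p = 0.00131, adjusted 0.0157), and r = 0.80 without the 2 tumors farthest from the median. C1qb and C3ar1 had r = 0.81 (exact permutation p = 0.00687, adjusted 0.0495) and rho = 0.73 (permutation p = 0.0311, adjusted 0.187), and r = 0.60 without 2 tumors. Cfb and Serping1 had rho = 0.92 (permutation p = 0.00131, adjusted 0.0157) but r = 0.73 (exact permutation p = 0.0267, adjusted 0.155). Their r was 0.83 without 2 tumors and 0.98 within the 6 unirradiated tumors. Set against the same macrophage marker sum, the summed receptor level was 0.0553, 0.0665 and 0.0463 in vehicle tumors, 0.0667, 0.0360 and 0.0573 in R788 + anti-PDL1 tumors, and 0.0298, 0.0522 and 0.0483 in Rad + R788 + anti-PDL1 tumors. Unlike the C1q ratio, the receptor ratio of the irradiated tumors overlapped both other groups, with a log2 difference of -0.39 from vehicle (exact permutation p = 0.3) and of -0.29 from R788 + anti-PDL1 (exact permutation p = 0.5).

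Across all 15931 genes, those with log2 CPM most like each complement gene over the 9 tumors were named as a description, without a test. For C1qa they were Tnfaip8l2 (r = 0.99), Siglece (0.97) and Lgmn (0.97), for C1qb Clec12a (0.99), Spi1 (0.96) and Ckb (0.96), and for C1qc Clec12a (0.97), Dhrs3 (0.97) and Lgmn (0.96). Spi1 encodes PU.1, and Clec12a was the closest gene for both C1qb and C1qc. C3ar1 was closest to Adgre1 (0.97), which encodes the macrophage antigen F4/80, then to Cd84 (0.97) and Nckap1l (0.96), whereas C5ar1 was closest to Pde7b (0.95), Atp8a1 (0.95) and Lmo2 (0.94). For Cfb they were Sp110 (0.95), Trim12a (0.94) and Ifi47 (0.93), and for C3 Fbxo38 (0.97), Cbfb (0.96) and the proteoglycan gene Dcn (0.96). C1ra was closest to Nedd1 (0.99), Stk25 (0.99) and Tm9sf3 (0.97), and Serping1 to Mttp (0.94), Matn2 (0.93) and AC183097.2 (0.93).

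The rest of the complement system was represented by 43 other genes, of which 23 passed the filter on low counts. EdgeR called 0 of 23 in every comparison. Raw p-values under 0.05 were obtained for 4, 6 and 4 of the 23, against 11.7%, 13.2% and 18.4% of all genes. The median log2 fold changes were 0.43, 0.59 and 0.13. Higher without overlap were 7, 1 and 3 of the 23, against 13.6%, 9.27% and 14.2% of all genes. Lower without overlap were 3, 2 and 2 of the 23, against 16.5%, 11.2% and 13.2% of all genes. In R788 + anti-PDL1 against vehicle the highest reported here were Fcna (2.90 ± 0.57, edgeR adjusted p = 0.0676), the gene of the lectin pathway recognition molecule ficolin A, and C4b (1.44 ± 1.18), a C4 gene. Fcna stood at 1.82, 1.62 and 1.15 CPM in vehicle tumors, 14.3, 9.02 and 11.0 CPM in R788 + anti-PDL1 tumors, and 5.61, 1.07 and 4.57 CPM in Rad + R788 + anti-PDL1 tumors, so the first 2 groups did not overlap. DESeq2 called it (adjusted p = 1.26e-05), and edgeR did so without the filter on low counts (adjusted p = 0.0148) and with only the 6 tumors compared (adjusted p = 0.0108). The lowest with this limit were the regulators Susd4 (-0.64), Cr1l (-0.36) and Cd59a (-0.34). Among tested genes with fewer counts, Csmd1 (-1.51) and C8g (-1.09) were lower, and Cd55 (1.95) lay above C4b.

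In Rad + R788 + anti-PDL1 against vehicle, with the same limit on counts, the highest reported here were C4b (2.32 ± 1.21) and Clu (1.67 ± 0.38, edgeR adjusted p = 0.157). Clu encodes clusterin, an inhibitor of the terminal complex, and Cd55 (1.85), with fewer counts, lay above it. Clu had 27.4, 11.4 and 15.7 CPM in vehicle tumors, 16.3, 23.5 and 15.5 CPM in R788 + anti-PDL1 tumors and 81.9, 47.9 and 43.3 CPM in Rad + R788 + anti-PDL1 tumors, the last above all others. C4b had 3.37, 13.4 and 10.1 CPM, then 2.56, 51.7 and 18.9 CPM, then 13.5, 5.68 and 115 CPM in the same order. Its groups thus overlapped, and the third irradiated tumor held by far the highest value. Csmd1 (-2.85) was the lowest of all but fell under the limit on counts. With the limit, the lowest was Susd4 (-2.46 ± 0.37, edgeR adjusted p = 0.0637), which encodes a membrane complement regulator. Susd4 had 12.0, 18.5 and 15.8 CPM in vehicle tumors but 3.02, 2.44 and 2.97 CPM in Rad + R788 + anti-PDL1 tumors. It was followed by C1s1 (-0.18), the partner protease of C1r, and Cd46 (-0.15). DESeq2 called 4 of the other complement genes here, against 3.16% of all genes. They were Susd4 (adjusted p = 2.43e-07), Clu (0.00292), Csmd1 (0.0193) and Cfp (0.0346), the gene of properdin. Between the treated groups the highest were Clu (1.64 ± 0.38, edgeR adjusted p = 0.170), C4b (0.88) and Itgam (0.52), and the lowest were Susd4 (-1.81 ± 0.37, adjusted p = 0.135), Fcna (-1.62 ± 0.54) and Cd46 (-0.68). Counts of C4b can be split with its near copy C4a, and Fcna, C1s1, Cd46 and Itgam overlap exons of another gene, so their values are uncertain to that extent.

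**Figure D5:**
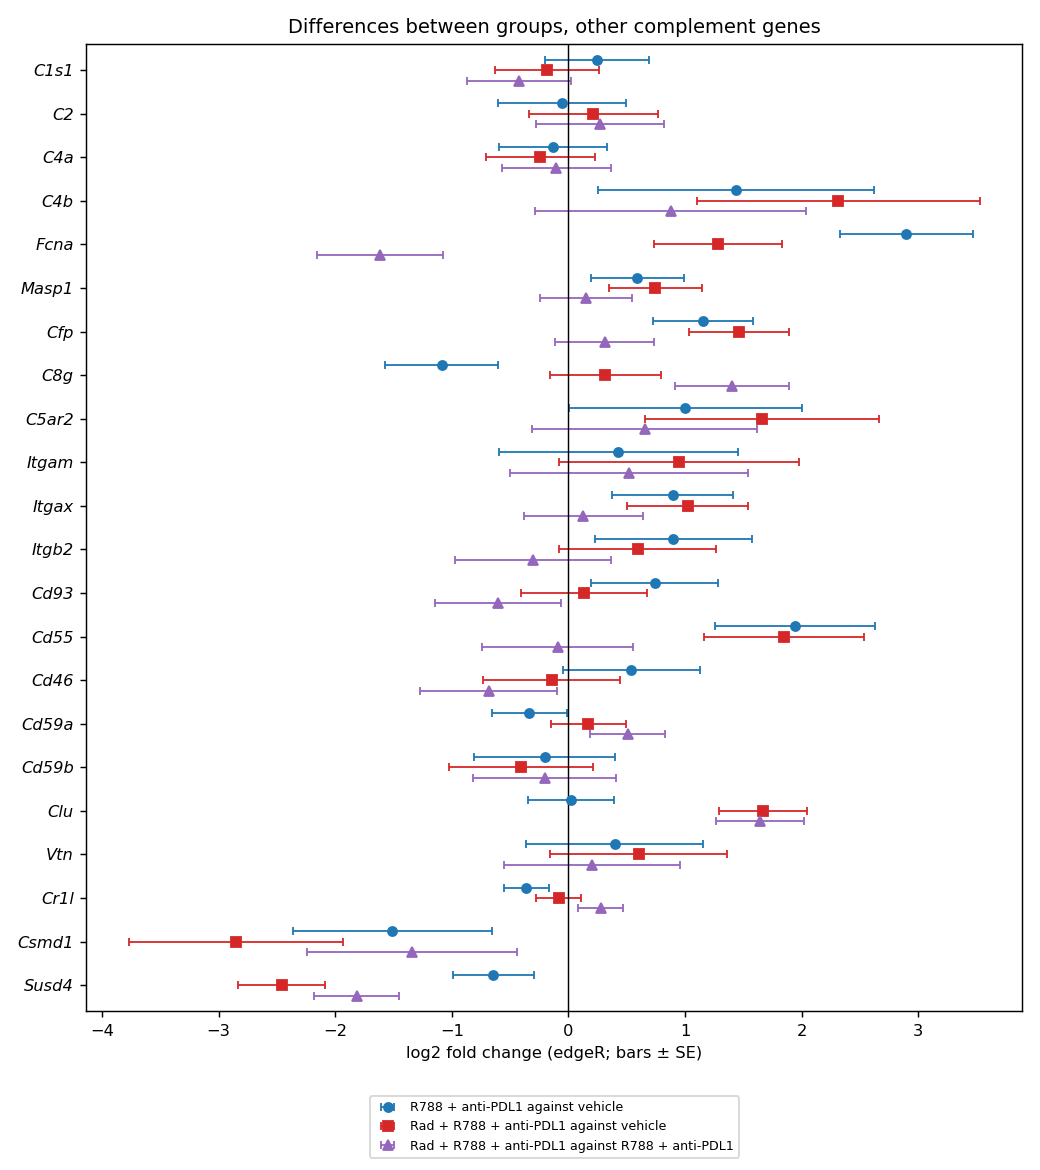
Log2 fold changes (x axis; bars ± SE from edgeR) of 22 other complement genes that passed the filter on low counts (y axis, ordered by pathway) in the 3 comparisons. Fcna is highest in R788 + anti-PDL1 against vehicle, and Clu and Susd4 lie on opposite sides of 0 in the 2 comparisons of irradiated tumors.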

How the data were processed

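PolyA-enriched RNA of 9 whole tumors, 3 per group by the treatment label, was sequenced. The authors deposited estimated counts per gene symbol, made with Salmon and written as whole numbers, with no normalization. The submitters' processing notes name STAR 2.6.1d, Salmon 1.4.0, SAMtools 1.9, Picard 2.26 and MultiQC 1.11, and build mm10. The extraction label names macrophages although the tissue label is whole tumor, the sequencer differs between sources, and strandedness was not given in the sources used here.

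Counts were filtered with filterByExpr (minimum count 10), scaled by TMM and tested with the robust quasi-likelihood method of edgeR 4.0.16 in R 4.3.3, over all 9 libraries and with group as the sole term. P-values were two-sided and Benjamini-Hochberg adjusted over all 15931 genes. The SE is the log2 fold change divided by the square root of F. Because nothing states that tumors came from separate mice, p-values measure the spread between samples. Alternatives were DESeq2 1.42.0 (the tool the authors used), its size factors, total counts, no filter, the 6 libraries compared, a replicate block, and each library left out. Scaling checks of group overlap and the C1q ratio and C1qa share without single libraries were added after seeing the data. No test had been planned for C1q or the receptors against macrophage markers, for the C1qa share or for correlations among the 9 genes. The permutation p-values of these measures are thus a description. Log2 CPM used a prior count of 2, and lengths were exon unions from GENCODE M21. Of the 54429 symbols, 53775 matched. All 9 genes were named. Of the other complement genes, the 3 highest and 3 lowest log2 fold changes with a mean count of at least 50 were named per comparison, and the 3 most alike genes per member, leaving out Gm and Rik gene models and antigen receptor segments. A gene that met this rule is not reported here. The genes and lists were chosen with earlier results of these data known.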

Additional observations from a re-analysis of the deposited data

How the results depend on the processing

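Each of the 27 differences of the 9 genes was recomputed under 12 alternatives. Of the 324 values, 311 kept their direction and 13 reversed, 12 of them in fits leaving out a library, and 2 were called, both by DESeq2. When single libraries were left out, R788 + anti-PDL1 against vehicle ranged from -0.20 to 1.46 for Cfb and from -0.028 to 1.29 for Serping1, both reversed without R788 + anti-PDL1 replicate 2. The full combination against vehicle ranged from -0.75 to 1.14 for C3ar1 and from -0.85 to 0.88 for C5ar1, both reversed without irradiated replicate 3. Between the treated groups, C1qb ranged from -0.38 to 0.95 and C1qc from -0.10 to 0.96, both reversed without irradiated replicate 3. C5ar1 ranged from -1.14 to 0.57, reversed without that tumor or R788 + anti-PDL1 replicate 2 (-0.040). Serping1 ranged from -0.79 to 0.53, reversed without R788 + anti-PDL1 replicate 2, and C3ar1 from -1.49 to 0.38, reversed without R788 + anti-PDL1 replicate 1 (0.17), irradiated replicate 1 or irradiated replicate 2 (0.32). The cause was not tested.

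Same-numbered tumors deviated from their group means with correlations of -0.05 to 0.23, so the numbers were not taken to pair them. With a replicate block, C5ar1 between the treated groups was -0.093, no member was called, and 0, 3 and 0 genes were called in all, in place of 108, 7 and 1. Calls over all genes were 726, 555 and 647 with DESeq2, 0, 1 and 0 with total counts only, 199, 70 and 24 with no filter, 594, 1 and 0 with the 6 libraries compared, and 0 to 75, 1 to 57 and 0 to 21 when a library was left out. Of the 9 genes, 2 were called by DESeq2 in Rad + R788 + anti-PDL1 against vehicle (C1qa and Cfb). Of the other complement genes, DESeq2 called 2, 4 and 3, against 4.01%, 3.16% and 4.06% of all genes. With no filter 1 (Fcna) and 1 (Susd4) were called in the comparisons with vehicle, and with the 6 libraries compared 4 in R788 + anti-PDL1 against vehicle (Fcna, Cfp, Cd93 and Itgb2). With 3 tumors a group, the SEs of the C1q, C3 and receptor genes were 0.53 to 0.68 on the log2 scale, and differences of that order were not detectable.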

Other observations

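The 20 complement genes under the filter on low counts had few counts in the tumors. Of these, 6 had a count of 0 in all 9 libraries (Mbl1, Fcnb, Colec10, C8b, C9 and Cd55b), and 10, these 6 included, never exceeded 3 counts, the number that a count of 0 allows. Among the genes of the terminal pathway, which builds the membrane attack complex, C7 had 2, 76 and 28 counts in the R788 + anti-PDL1 tumors and 0 to 2 counts in the other 6, and DESeq2 called it for the drugs over vehicle (adjusted p = 0.0128) and between the treated groups (adjusted p = 0.0392). C6 had 77 counts in the third Rad + R788 + anti-PDL1 tumor and 34 in the second R788 + anti-PDL1 tumor, against 0 to 9 elsewhere. Hc, which encodes C5, reached 31 counts in the second vehicle tumor, and Cr2 reached 33 in the second Rad + R788 + anti-PDL1 tumor.

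C8g (ENSMUSG00000015083.11) was the single terminal pathway gene tested. It had 3.26, 1.66 and 1.70 CPM in vehicle tumors, 0.573, 1.41 and 1.11 CPM in R788 + anti-PDL1 tumors and 3.17, 2.23 and 2.83 CPM in Rad + R788 + anti-PDL1 tumors, so the R788 + anti-PDL1 tumors lay below both other groups without overlap. Of all genes, 16.5% were lower without overlap for the drugs against vehicle, and 14.2% higher without overlap between the treated groups. C8g had only 13 to 62 counts per library. Its log2 fold changes were -1.09 ± 0.49 for the drugs relative to vehicle (edgeR adjusted p = 0.429), 0.31 ± 0.48 for the full combination relative to vehicle (adjusted p = 0.752) and 1.402 ± 0.488 between the treated groups (adjusted p = 0.226). C8g was picked after its values were seen.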
